A study of Mus musculus with 9 samples.

Results

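Interferon gamma is a cytokine made mainly by T cells and natural killer cells. It binds a receptor built from Ifngr1, the chain that holds the ligand, and Ifngr2, the chain needed for signalling. The receptor chains carry the kinases Jak1 and Jak2, and signalling reaches target promoters through gamma-activated sequences (GAS). Among the direct targets are Irf1, a transcription factor that drives a further set of genes, and Socs1, an inhibitor that blocks the kinases. Ciita and Nlrc5 are coactivators of the antigen presentation genes of MHC class II and class I. In tumours the pathway is known both for showing tumour cells to T cells and for inducing the checkpoint ligand PD-L1.

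The genes described here are these 9, Ifng, Ifngr1, Ifngr2, Jak1, Jak2, Irf1, Socs1, Ciita and Nlrc5, taken by their exact symbols from the 42454 gene names of the count tables. All 9 passed the filter on low counts, as did 18243 names in all. They were followed in bulk RNA of 9 whole tumours, formed by the mouse colon carcinoma line MC38 in C57BL/6J mice and taken at day 21 after inoculation. In 5 tumours the implanted cells carried a knockout of CD43, a membrane glycoprotein encoded by Spn (CD43-KO), and in the other 4 they carried the vector control and were labelled wild type (Vec). The mice are given as the same strain in both groups, so the host leukocytes, which normally carry CD43, are not described as knocked out. Whether the knockout line was 1 clone is not given in the sources used here. The title of the series places the comparison in the anti-tumour immune response when CD43 is targeted.

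Total counts ran from 44814061 to 62194418 in CD43-KO libraries and from 60751738 to 72114385 in Vec libraries. Spn was at 6.81 to 33.6 CPM (counts scaled to library size with TMM factors) in CD43-KO tumours and at 41.0 to 53.8 CPM in Vec tumours, with no overlap, and counts per gene cannot show the deletion itself. CD43-KO replicate 3 stood apart before any comparison: it had the lowest depth, the far end of the first principal component (34.9% of the variance), and by far the most RNA of skeletal muscle and fat. The 6 muscle markers summed to 953.9 CPM in it, against at most 99.4 CPM in the other CD43-KO tumours and 71.6 to 93.7 CPM in Vec tumours. The 5 fat markers summed to 521 CPM in it, against at most 45.2 CPM in the other CD43-KO tumours and 40.7 to 57.8 CPM in Vec tumours. Fold changes of the members and counts and medians of the lists are given with and without it. Of 5 epithelial markers listed for the carcinoma cells, Krt8 and Krt18 did not pass the filter on low counts, and Epcam and Krt19 were at most 1.41 CPM in any tumour. Cdh1 was at 6.42 to 14.8 CPM in CD43-KO tumours and 7.96 to 13.6 CPM in Vec tumours.

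The promoters of the 2 direct targets were searched for GAS and for a second element of interferon-induced genes, and only that of Irf1 held a GAS match. The 250 bases before the gene start, from the RefSeq table of GRCm38.p6, are printed 5′ to 3′ on the strand of the gene. In Irf1 (chr11:53769764-53770013, plus strand) the capitals mark a match to the GAS core TTCNNNGAA, and in Socs1 (chr16:10785537-10785786, minus strand) they mark 2 matches to GAAANNGAA, the core of the interferon-stimulated response element that IRF factors bind.
Irf1: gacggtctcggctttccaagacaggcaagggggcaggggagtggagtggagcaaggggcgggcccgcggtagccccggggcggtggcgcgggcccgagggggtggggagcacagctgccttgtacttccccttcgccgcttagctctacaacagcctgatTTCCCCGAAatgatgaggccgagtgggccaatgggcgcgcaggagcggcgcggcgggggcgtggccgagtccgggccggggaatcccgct
Socs1: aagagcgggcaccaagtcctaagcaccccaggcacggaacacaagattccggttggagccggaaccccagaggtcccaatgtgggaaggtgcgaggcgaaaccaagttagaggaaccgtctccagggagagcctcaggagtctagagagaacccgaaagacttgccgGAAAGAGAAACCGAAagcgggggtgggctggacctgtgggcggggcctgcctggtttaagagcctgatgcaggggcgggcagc
The Irf1 match begins 90 bases before the gene start. The Socs1 matches begin 83 and 77 bases before it and share 3 letters with each other. The Socs1 window held no GAS match. Both strands were searched in the 250 bases of each promoter. Of 32851 promoters in the table, 7.02% hold the GAS core, which reads the same on both strands, 7.13% hold the response element core, and 0.752% hold both. Of the other members in the table, Ifng had 1 GAS match, beginning 249 bases before its start, and the windows of Ifngr1, Ifngr2, Jak1 and Jak2 held neither core. The window of Jak1 belongs to a RefSeq start other than the annotated gene start, and a further Irf1 window in the table, which lies inside the gene, also held neither core. The promoters of Ciita and Nlrc5 were not printed. A match is a description of letters, not of a bound site.

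Compared per length, the pathway was built of members at very different levels. Over the 9 tumours the mean level was 69.9 CPM per kilobase of exon for Irf1, the highest, and it was 32.1 for Ifngr1, 24.0 for Jak1, 18.0 for Ifngr2, 14.8 for Socs1, 11.4 for Nlrc5 and 9.24 for Jak2, all in the same unit. The ligand Ifng at 2.74 and Ciita at 1.68 CPM per kilobase were the lowest. Irf1, at 52.0 to 109.5 CPM per kilobase, did not overlap any other member in its range over tumours. The range of Ifngr1 (27.3 to 46.5) only touched that of Jak1 (15.2 to 27.3) and overlapped the top of that of Socs1 (10.6 to 28.0). Jak1 overlapped Ifngr2 (15.5 to 26), Ifngr2 overlapped Socs1, Socs1 overlapped Nlrc5 (6.03 to 13.7), and Nlrc5 overlapped Jak2 (6.06 to 11.9). Ifng ran from 0.646 to 8.84 CPM per kilobase, the widest ratio between tumours of the 9 genes, and this range held the whole range of Ciita, 1.15 to 2.77 CPM per kilobase. The top of the Ifng range also overlapped Nlrc5 and Jak2.

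**Figure D1:**
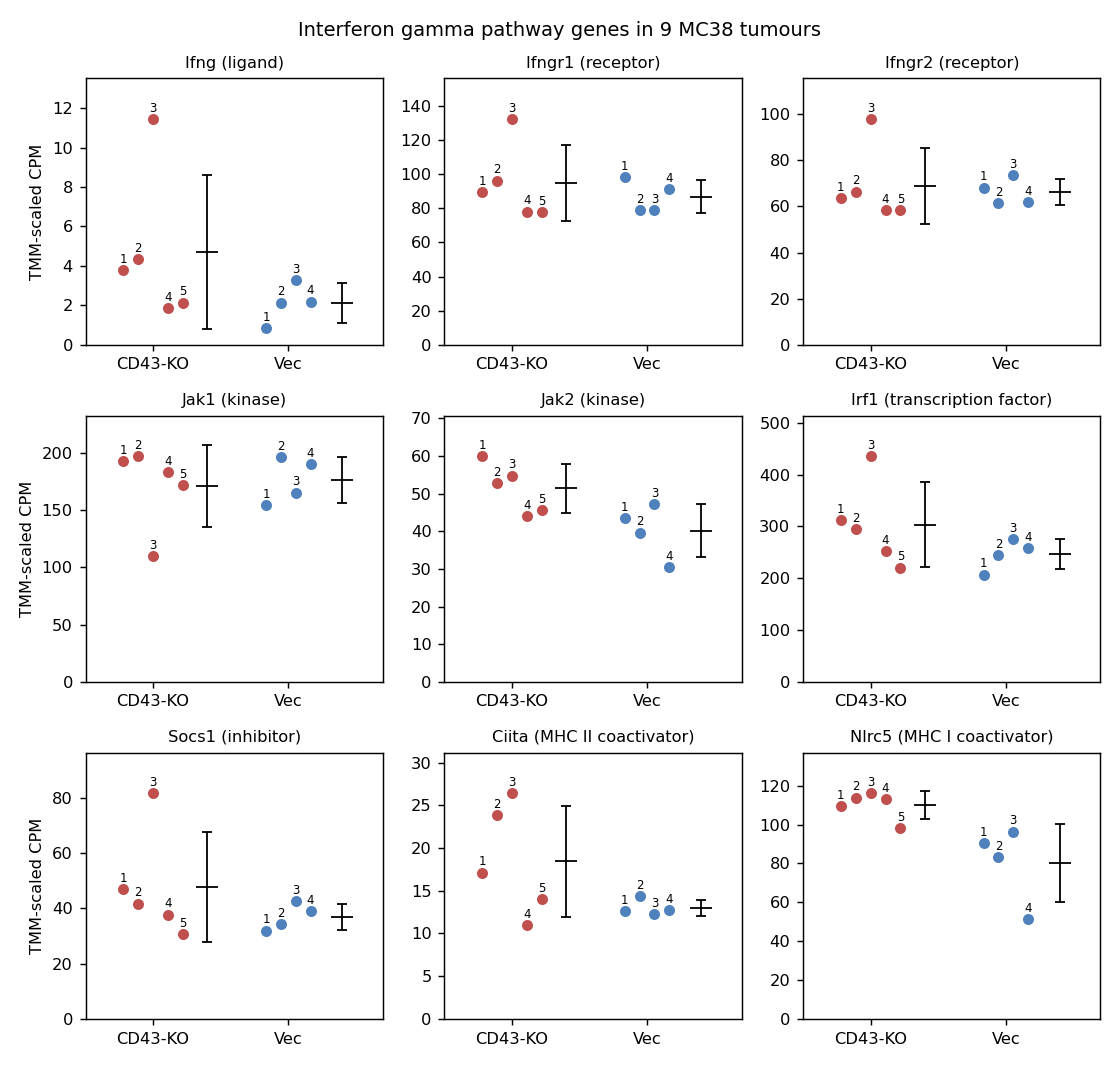
Level of each of the 9 pathway genes (y axis, TMM-scaled CPM on a linear scale from 0) in the 5 CD43-KO and 4 Vec tumours (x axis). Points are single tumours with their replicate number, and bars are the mean and SD of each group. CD43-KO replicate 3 is the highest tumour for Ifng at 11.45 CPM and the lowest for Jak1 at 109.7 CPM, and Nlrc5 is the gene whose groups do not overlap.

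The ligand Ifng (chr10:118441046-118445892, plus strand, GRCm38) was at 3.77, 4.35, 11.45, 1.84 and 2.13 CPM in CD43-KO replicates 1 to 5, against 0.837, 2.13, 3.28 and 2.18 CPM in Vec replicates 1 to 4. CD43-KO replicates 1, 2 and 3 lay above every Vec tumour, while replicates 4 and 5 lay within the Vec range. The log2 fold change of 1.15 had a 95% interval of -0.12 to 2.42 and did not pass edgeR's quasi-likelihood test with Benjamini-Hochberg adjustment over all genes (adjusted p = 0.360). Without CD43-KO replicate 3 it was 0.51, and without Vec replicate 1 it was 0.88. In bulk tissue, fewer cells of a type and less RNA per cell cannot be told apart, here and in all results that follow.

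The same 3 CD43-KO tumours were the highest for Ptprc and for the sums of T cell and natural killer cell markers. Fibroblast and endothelial markers were also high in them, while neutrophil markers had no such order. Ptprc, the pan-leukocyte gene that encodes CD45, was at 85.3, 108.5, 148.4, 37.1 and 64.5 CPM in CD43-KO replicates 1 to 5, against 42.7, 50.6, 61.7 and 35.9 CPM in Vec replicates 1 to 4. CD43-KO replicate 5 was thus also above every Vec tumour for Ptprc. The 8 T cell markers, all of them with a fold change above 0, summed to 23.9 to 130.7 CPM in CD43-KO tumours and 24.9 to 39.6 CPM in Vec tumours. The 5 natural killer cell markers, also all above 0, summed to 10.9 to 62.0 CPM in CD43-KO tumours and 11.5 to 24.7 CPM in Vec tumours. No marker of either list was at 0 in all tumours. The 5 fibroblast markers, 3 of them above 0 and 2 below, summed to 2099, 3256, 1861, 1358 and 1130 CPM in CD43-KO replicates 1 to 5. Their sum was 1456 to 1612 CPM in Vec tumours. The 3 endothelial markers, all above 0, summed to 83.4, 98.5, 74.6, 43.1 and 59.9 CPM in CD43-KO replicates 1 to 5. In Vec tumours they summed to 53.4 to 64.95 CPM. The 5 neutrophil markers, of which 4 were tested, with 2 above 0 and 2 below, summed to 88.05, 19.1, 41.7, 49.0 and 13.4 CPM in CD43-KO replicates 1 to 5. Their sum was 6.94 to 79.0 CPM in Vec tumours.

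Set beside Ptprc within each tumour, Ifng did not separate the groups. The log2 ratio of Ifng to Ptprc was -4.49, -4.63, -3.69, -4.31 and -4.90 in CD43-KO replicates 1 to 5, against -5.62, -4.55, -4.22 and -4.02 in Vec replicates 1 to 4. The groups overlapped almost fully, with a mean of -4.40 ± 0.45 in CD43-KO tumours (SD, n = 5) and -4.60 ± 0.71 in Vec tumours (SD, n = 4). The difference of 0.20 was within the spread (exact 2-sided permutation test, p = 0.651), and it was 0.02 without CD43-KO replicate 3 and -0.14 without Vec replicate 1. The ratios of these few tumours spread widely within each group, so they do not show that Ifng per leukocyte was equal.

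The receptor chains did not separate the groups. Ifngr1 (chr10:19591949-19610229, plus strand) was at 89.5, 96.3, 132.5, 78.1 and 77.7 CPM in CD43-KO replicates 1 to 5, against 98.3, 79.0, 79.2 and 91.5 CPM in Vec replicates 1 to 4. Only CD43-KO replicate 3 was above all Vec tumours, and replicates 4 and 5 were below all of them. Its log2 fold change was 0.12, with an interval of -0.23 to 0.48 (edgeR adjusted p = 0.721), and was -0.03 without CD43-KO replicate 3.

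Ifngr2 (chr16:91547072-91565623, plus strand) followed the same outline. It was at 63.7, 66.5, 97.95, 58.4 and 58.5 CPM in CD43-KO replicates 1 to 5, against 68.1, 61.5, 73.7 and 61.9 CPM in Vec replicates 1 to 4. Again replicate 3 alone was above the Vec range, and replicates 4 and 5 were below it. Ifngr2 had a log2 fold change of 0.06, with an interval of -0.29 to 0.40 (edgeR adjusted p = 0.876), and it was -0.11 without CD43-KO replicate 3. The intervals of both receptor genes leave out a doubling or a halving but not smaller differences of either sign.

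The 2 kinases behaved differently from each other across tumours. Jak1 (chr4:101152367-101265282, minus strand), which binds Ifngr1 and serves many other cytokine receptors, was at 193, 197, 109.7, 183 and 172 CPM in CD43-KO replicates 1 to 5, against 154, 196, 165 and 190.1 CPM in Vec replicates 1 to 4. CD43-KO replicate 3 was the lowest of all tumours, and the other 4 lay close to or within the Vec range. The log2 fold change of -0.05, with an interval of -0.41 to 0.32 (edgeR adjusted p = 0.910), turned to 0.07 without replicate 3. Scaling by library totals alone also turned it, to 0.05.

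Jak2 (chr19:29251828-29313080, plus strand), the kinase on Ifngr2, had a higher mean in CD43-KO tumours with less dependence on replicate 3. It was at 59.97, 52.7, 54.8, 44.1 and 45.7 CPM in CD43-KO replicates 1 to 5, against 43.5, 39.6, 47.2 and 30.5 CPM in Vec replicates 1 to 4. CD43-KO replicates 1, 2 and 3 were above every Vec tumour and replicates 4 and 5 were below Vec replicate 3 only. Its log2 fold change was 0.36 with an interval of 0.04 to 0.67. It did not pass over all genes (edgeR adjusted p = 0.285), while the 2-sided exact permutation test of this gene alone gave p = 0.0476. The fold change was 0.33 without CD43-KO replicate 3 and 0.24 without Vec replicate 4.

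Jak2 lies on chromosome 19, whose 568 tested genes had a median log2 fold change of -0.10, with 35.2% of them above 0, against a median of 0.03 over all genes tested. Jak2 thus stood above a chromosome that was on average lower in CD43-KO tumours. Within 1 Mb of Jak2, 6 of 14 tested genes had a fold change above 0. These included the checkpoint ligand genes Cd274 (1.10) and Pdcd1lg2 (1.75), while Ak3, an adenylate kinase gene, had -0.43, all on the log2 scale. These 3 neighbours were chosen for an unadjusted edgeR p under 0.05, and none passed after adjustment.

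Irf1 (chr11:53770014-53778374, plus strand), whose promoter holds the GAS match printed above, was the most abundant member per length. It was at 312, 295, 435.6, 253 and 221 CPM in CD43-KO replicates 1 to 5, against 207, 245, 275 and 258 CPM in Vec replicates 1 to 4. CD43-KO replicates 1, 2 and 3, the tumours with the most Ifng, exceeded all Vec tumours, and the other 2 did not. Irf1 had a log2 fold change of 0.30, with an interval of -0.10 to 0.70 (edgeR adjusted p = 0.440), and was 0.13 without replicate 3.

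Socs1 (chr16:10782240-10785536, minus strand), the feedback inhibitor, was at 46.8, 41.7, 81.5, 37.7 and 30.8 CPM in CD43-KO replicates 1 to 5, against 31.9, 34.4, 42.5 and 38.95 CPM in Vec replicates 1 to 4. CD43-KO replicates 1 and 3 were above the Vec range and replicate 5 was below it. The log2 fold change of 0.37, with an interval of -0.19 to 0.92 (edgeR adjusted p = 0.488), was 0.08 without replicate 3.

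Ciita (chr16:10480059-10528418, plus strand), the coactivator of class II genes, spread widely in CD43-KO tumours and little in Vec tumours. It was at 17.1, 23.8, 26.4, 10.97 and 14.01 CPM in CD43-KO replicates 1 to 5, against 12.7, 14.4, 12.3 and 12.7 CPM in Vec replicates 1 to 4. Replicates 1, 2 and 3 were again above every Vec tumour, and replicate 4 was below them all. For Ciita the log2 fold change was 0.51, with an interval of -0.01 to 1.03 (edgeR adjusted p = 0.334), and was 0.34 without CD43-KO replicate 3.

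Ciita is expressed mostly by antigen-presenting leukocytes, and their markers moved with it. The 9 markers of antigen-presenting cells, of which the 7 tested were all above 0, summed to 113.7 to 296.9 CPM in CD43-KO tumours and 115.6 to 144.2 CPM in Vec tumours. The 5 macrophage markers, all above 0, summed to 208.4 to 717.9 CPM in CD43-KO tumours and 239.1 to 285.4 CPM in Vec tumours. No marker of these lists was at 0 in all tumours. Relative to Ptprc, Ciita had a mean log2 ratio of -2.19 ± 0.27 in CD43-KO tumours (SD, n = 5) and -1.85 ± 0.35 in Vec tumours (SD, n = 4), a difference of -0.34 in the direction opposite to its own fold change (2-sided exact permutation test, p = 0.143). This difference was -0.265 without CD43-KO replicate 3.

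Nlrc5 (chr8:94434356-94527272, plus strand), the coactivator of class I genes, was the 1 member whose groups did not overlap. It was at 109.4, 113.9, 116.1, 113.2 and 98.3 CPM in CD43-KO replicates 1 to 5, against 90.4, 83.3, 96.4 and 51.2 CPM in Vec replicates 1 to 4. The CD43-KO tumours lay close together, and replicates 4 and 5, which had little Ifng, were not low. The log2 fold change was 0.46 with an interval of 0.10 to 0.82. The 2-sided exact permutation test of this gene alone gave p = 0.00794, the smallest it can give, but the gene did not pass over all genes (edgeR adjusted p = 0.262). The fold change was 0.43 without CD43-KO replicate 3, and 0.28 without Vec replicate 4, the lowest tumour.

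Levels also differed between tumours by exon length. Nlrc5 has 8493 bases of exon, and the 2455 tested protein-coding genes of 8 kb and over had a median log2 deviation from the Vec mean of 0.20, 0.17, -0.08, 0.15 and 0.15 in CD43-KO replicates 1 to 5, against 0.09, 0.10, 0.02 and -0.18 in Vec replicates 1 to 4. Long genes as a class were thus higher in 4 of the 5 CD43-KO tumours than in any Vec tumour, and lowest in Vec replicate 4, where Nlrc5 was also lowest. With this class median taken off each tumour, the mean log2 difference of Nlrc5 was 0.38, against 0.49 before (2-sided exact permutation tests, p = 0.0317 and p = 0.00794), and 4 of the 5 CD43-KO tumours were above all Vec tumours. Treated in the same way with its class of 4 to 8 kb, Jak2 had 0.34 against 0.37 before (2-sided exact permutation tests, p = 0.0635 and p = 0.0476), and Ciita, in the class of Nlrc5, had 0.32 against 0.43. The differences of the other members moved away from 0, with Ifng at 1.07 against 0.97, Irf1 at 0.32 against 0.27, Socs1 at 0.35 against 0.29, Ifngr1 at 0.16 against 0.10, Ifngr2 at 0.09 against 0.03 and Jak1 at -0.09 against -0.07. For these 7 genes no exact permutation p passed 0.05 either way. This step was chosen after the values were seen.

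**Figure D2:**
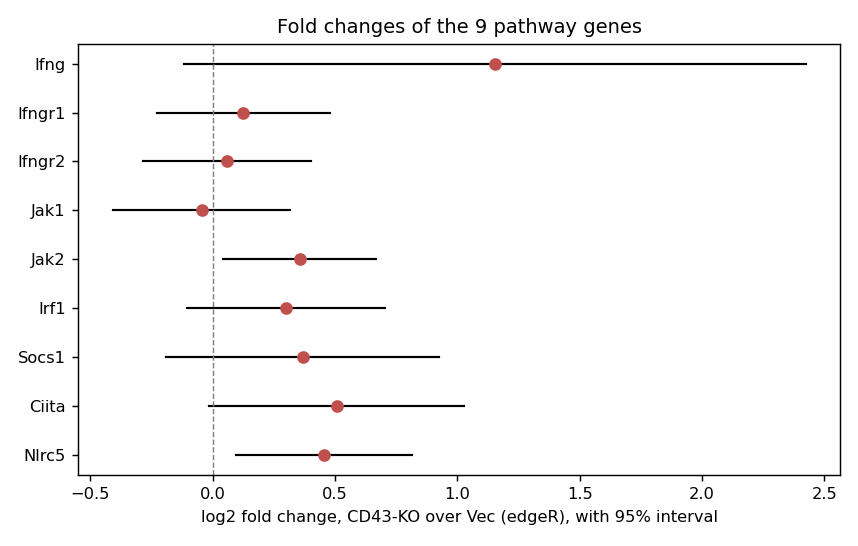
Log2 fold change of each pathway gene, CD43-KO over Vec (x axis), with its 95% interval from the edgeR fit as a line, and genes down the page from ligand to coactivators. The dashed line marks 0. The intervals of Jak2 (0.04 to 0.67) and Nlrc5 (0.10 to 0.82) lie above 0, neither passes after adjustment over all genes, and Ifng has the widest interval.

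Read together, 8 of the 9 genes had a fold change above 0, with a median log2 fold change of 0.36, where 54% of all genes tested were above 0 and their median was 0.03. Without CD43-KO replicate 3, 7 of the 9 were above 0 and the median was 0.13, against 0.01 over all genes tested. None passed edgeR's quasi-likelihood test with Benjamini-Hochberg adjustment at 0.05, and neither did any other gene, so the background is 0%. At an unadjusted edgeR p under 0.05, 2 of the 9, Jak2 and Nlrc5, were higher in CD43-KO tumours, where 7.75% of all genes were higher and 7.63% lower at this level. The groups did not overlap, with CD43-KO above, for 1 of the 9, where 2.08% of all genes showed this. In either direction, DESeq2 called 3.66% of the 16733 genes to which it gave an adjusted p, and limma voom called 3.08% of all 18243 genes. Both called 0 of the 9.

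Across the 9 tumours, without regard to group, Irf1, Socs1 and Ciita followed the ligand. Ordered by Ifng, the tumours ran from Vec replicate 1 at the low end to CD43-KO replicate 3 at the high end, and the same 2 tumours were the lowest of the Vec group and the highest of all for Irf1 and Socs1. In a limma model of each gene on log2 Ifng, adjusted over all genes, Irf1 had a slope of 0.29 (adjusted p = 0.0046), Socs1 of 0.37 (adjusted p = 0.00744) and Ciita of 0.35 (adjusted p = 0.0308) on the log2 scale. These are 3 of the 8 other members, where 6.67% of all genes were called as rising and 2.47% as falling with Ifng. Within a tumour all genes are read from the same library and the same mixture of cells, and leukocyte content differed between tumours, so the relation is across mixtures and not within cells.

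By correlation, Irf1 was the closest of the 3 to Ifng. Irf1 had r = 0.95 and rho = 0.93 with Ifng (exact permutation p = 0.000163 and p = 0.00075, n = 9), and 99.8% of all genes had a lower r. Socs1 had r = 0.90 and rho = 0.87 (exact permutation p = 0.0013 and p = 0.00451, n = 9). Ciita had r = 0.81 and rho = 0.75 (exact permutation p = 0.00407 and p = 0.0255, n = 9). Without CD43-KO replicate 3 and Vec replicate 1, the tumours farthest from the median of Ifng, r was 0.84 for Irf1, 0.73 for Socs1 and 0.78 for Ciita over 7 tumours, and the limma adjusted p of the 3 genes was 0.391, 0.485 and 0.258. Without Vec replicate 1 alone, the 3 genes still passed (limma adjusted p = 0.00684, 0.00472 and 0.0186), and the share of all genes passing in that fit was not counted. Without CD43-KO replicate 3 alone, the slopes were 0.24, 0.22 and 0.30 with a limma adjusted p of 0.216, 0.346 and 0.484. The calls of the 3 genes therefore rest on CD43-KO replicate 3.

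**Figure D3:**
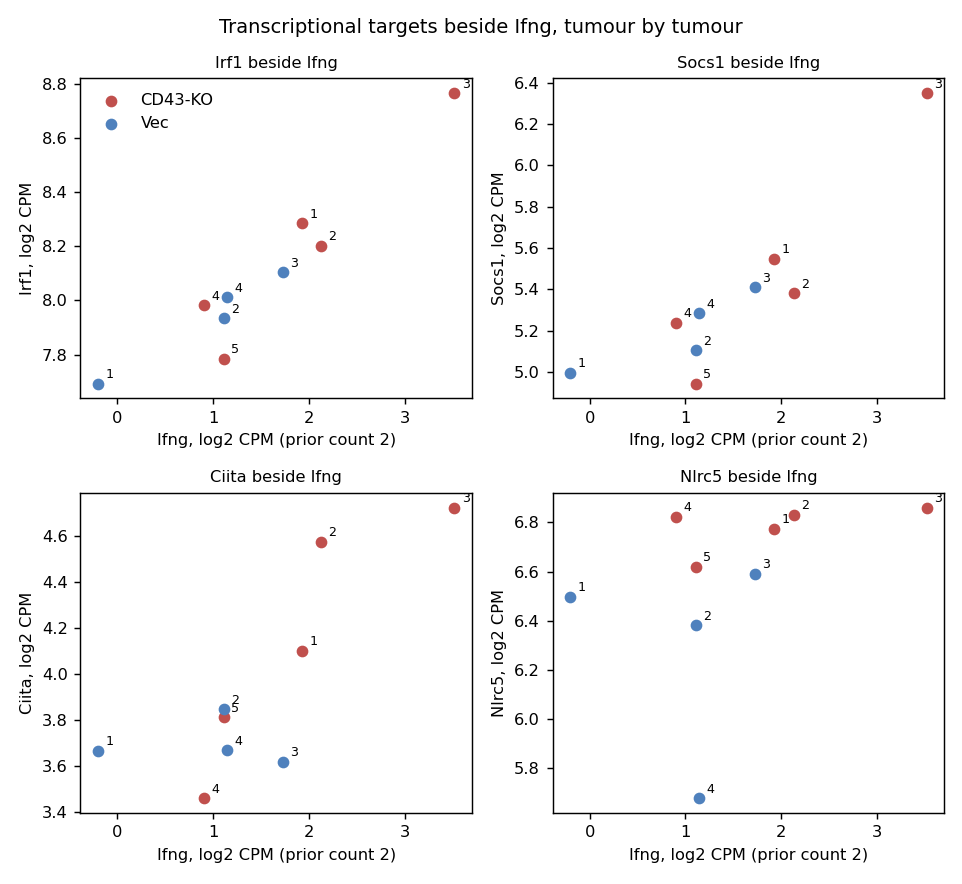
Log2 CPM of Irf1, Socs1, Ciita and Nlrc5 (y axes) against log2 CPM of Ifng (x axis, prior count 2) in the 9 tumours, in red for CD43-KO and blue for Vec, with replicate numbers. Irf1 (r = 0.95) and Socs1 (r = 0.90) rise along Ifng through both groups up to CD43-KO replicate 3, while Nlrc5 (r = 0.39) separates by group.

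The receptors and kinases followed the ligand less closely, and none passed in the limma model. Ifngr2 had r = 0.705 and rho = 0.57 with Ifng (exact permutation p = 0.0569 and p = 0.121, n = 9), and Ifngr1 had r = 0.59 and rho = 0.47 (exact permutation p = 0.114 and p = 0.213, n = 9). Jak2 had r = 0.54 and rho = 0.68 (exact permutation p = 0.126 and p = 0.0503, n = 9). Jak1 had r = -0.47 and rho = 0.15 (exact permutation p = 0.204 and p = 0.708, n = 9), and its r was 0.17 without the 2 farthest tumours. Its slope on log2 Ifng was 0.114 without CD43-KO replicate 3 alone and -0.255 without Vec replicate 1 alone. The negative sign thus rested on CD43-KO replicate 3. Nlrc5 had r = 0.39 and rho = 0.52 (exact permutation p = 0.268 and p = 0.162, n = 9). The limma adjusted p of these 5 genes ran from 0.121 to 0.447.

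Nlrc5 instead went with Jak2, at r = 0.90 and rho = 0.80 over the 9 tumours (exact permutation p = 0.00174 and p = 0.0138), and at r = 0.805 without Vec replicate 4 and CD43-KO replicate 1, the tumours farthest in Jak2. This pair was picked from the 36 pairs of members after their values were seen. The 4 genes most like Nlrc5 in log2 CPM over the 9 tumours were the myosin gene Myo5a (r = 0.97), Glcci1 (r = 0.97), the chromatin remodeller gene Chd7 (r = 0.96) and the myosin phosphatase subunit gene Ppp1r12b (r = 0.96). Like Nlrc5, Myo5a had its lowest value in Vec replicate 4, at 58.3 CPM against 86.0 to 91.3 CPM in the other Vec tumours.

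The genes whose pattern was most like the ligand or Irf1 were of another kind. For Ifng they were the myeloid lectin gene Clec12a (r = 0.98), Ear2 (0.98), the macrophage gene Aif1 (0.97), Bcl2a1d (0.97), the cytokine gene Tnf (0.97) and Ppp1r3c (0.96), each as r over 9 tumours. For Irf1 they were Socs1 (r = 0.98), the nucleoside kinase gene Dck (0.97), Acod1, which makes itaconate in activated macrophages (0.97), and the interferon-induced GTPase gene Tgtp1 (0.97). Clec12a was at 34.7, 39.8, 92.1, 17.5 and 20.4 CPM in CD43-KO replicates 1 to 5, against 13.9, 20.2, 28.8 and 22.7 CPM in Vec replicates 1 to 4. CD43-KO replicate 3 was thus the highest for these genes as it was for Ifng.

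No gene upstream of Ifng passed edgeR's test after adjustment. Of 9 tested genes for cytokines and receptors that drive Ifng, 6 had a fold change above 0 and 4 had an unadjusted edgeR p under 0.05, all higher, with a median log2 fold change of 0.49. These became 6, 2 and 0.36 without CD43-KO replicate 3. Over all genes tested, 54% were above 0 and 7.75% were higher at this p, and 51.9% and 8.67% without that tumour. The interleukin 18 receptor gene Il18r1 was at 6.12 ± 4.02 CPM in CD43-KO tumours (SD, n = 5) and 1.87 ± 0.45 CPM in Vec tumours (SD, n = 4), a log2 fold change of 1.71 (edgeR adjusted p = 0.202, DESeq2 adjusted p = 0.0122), and its partner chain gene Il18rap had 0.78 (edgeR adjusted p = 0.231). Il12b, a subunit of interleukin 12, had a log2 fold change of 1.06 and Il15ra, an interleukin 15 receptor chain, of 0.37. Il12a was listed but did not pass the filter on low counts. All 4 transcription factor genes of Ifng were above 0, with a median of 0.61 and 1 of them, Stat4 at 1.13, with an unadjusted edgeR p under 0.05. Tbx21, which encodes T-bet, had 0.81, Runx3 0.40 and Eomes 0.30. All 4 were also above 0 without CD43-KO replicate 3, with a median of 0.46 and 0 under that p.

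Between receptor and targets, the Stat and Irf factors had no common direction. Of 6 genes 3 were above 0, 0 had an unadjusted edgeR p under 0.05, and the median log2 fold change was 0.03. Over all genes tested, 54% were above 0, and 7.75% were higher and 7.63% lower at this p. With CD43-KO replicate 3 left out, 3 of 6 were above 0 with a median of -0.02, and 1 was lower at that p. In that fit 51.9% of all genes were above 0, and 1909 of 18037 were lower at that p. Stat3, which serves other cytokines as well, had a log2 fold change of 0.25 (edgeR adjusted p = 0.674), and Irf8, a factor of myeloid cells, had 0.50 (edgeR adjusted p = 0.401).

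Among 9 negative regulators besides Socs1, 8 were above 0, where 54% of all genes were, with a median log2 fold change of 0.19. At an unadjusted edgeR p under 0.05, 3 were higher in CD43-KO tumours and 1 was lower, where 7.75% of all genes were higher and 7.63% lower. These counts were also 3 and 1 without CD43-KO replicate 3, with a median of 0.21. In that fit 8.67% of all genes were higher and 1909 of 18037 were lower. The tyrosine phosphatase genes Ptpn6 and Ptpn11 had 0.74 and 0.16, and Socs3 had 0.27. Usp18, which dampens the type I interferon receptor, was at 12.4 ± 3.20 CPM in CD43-KO tumours (SD, n = 5) and 20.4 ± 7.32 CPM in Vec tumours (SD, n = 4), with a log2 fold change of -0.72 (edgeR adjusted p = 0.250). Socs2, which belongs to the family of Socs1, was the 1 gene of this list with no overlap, which 2.08% of all genes showed in this direction. It was at 11.03, 16.5, 10.4, 12.9 and 16.2 CPM in CD43-KO replicates 1 to 5, against 9.06, 8.94, 8.10 and 7.26 CPM in Vec replicates 1 to 4, and it was singled out after its values were seen (log2 fold change 0.69, edgeR adjusted p = 0.187, DESeq2 adjusted p = 0.0118).

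The wider set of interferon gamma targets had mostly positive fold changes, and none passed edgeR's test after adjustment. Of 22 genes, 21 were above 0, 3 had an unadjusted edgeR p under 0.05, all higher, and the median log2 fold change was 0.32. Leaving out CD43-KO replicate 3 left 16 of the 22 above 0, 3 with such a p, and a median of 0.11. The shares over all genes tested were 54% above 0 and 7.75% higher at this p, and 51.9% and 8.67% without that tumour. The most abundant were the guanylate-binding protein gene Gbp2, at 599.5 ± 211 CPM in CD43-KO tumours (SD, n = 5) and 476 ± 104 CPM in Vec tumours (SD, n = 4), and the T cell chemokine gene Cxcl9, at 299 ± 151 CPM in CD43-KO tumours and 190.1 ± 39.8 CPM in Vec tumours. Their log2 fold changes were 0.33 and 0.65 (edgeR adjusted p = 0.517 and 0.362). The adhesion molecule gene Icam1 had 1.203 (edgeR adjusted p = 0.246, DESeq2 adjusted p = 0.0403) and Cd274, which encodes PD-L1, had 1.10 (edgeR adjusted p = 0.255, DESeq2 adjusted p = 0.0472). Of the 22 genes, 6 have further copy-suffixed names in the tables and are uncertain. With those counts added and all tumours kept, the median of the 22 genes was 0.337.

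Downstream of the coactivators, no class II or class I gene passed edgeR's test after adjustment. All 9 class II genes under Ciita were above 0 with a median log2 fold change of 0.44, and 0 had an unadjusted edgeR p under 0.05. The invariant chain gene Cd74 had 0.46, H2-Ab1 0.57 and H2-Aa 0.59 (edgeR adjusted p = 0.466, 0.423 and 0.440). Of the 9 class I genes under Nlrc5, 8 were above 0, the median log2 fold change was 0.08, and 0 had an unadjusted edgeR p under 0.05. The heavy chain gene H2-K1 had 0.06 and the light chain gene B2m 0.15 (edgeR adjusted p = 0.864 and 0.723), beside the 0.46 of Nlrc5, while H2-Q7 had 0.63 and the peptide-loading gene Tapbp 0.23. In the fit without CD43-KO replicate 3, 7 of the 9 class II genes were above 0 with a median of 0.21, and 2 of the 9 class I genes were above 0 with a median of -0.05. The share of all genes above 0 was 54% with that tumour and 51.9% without it. With that tumour, 7.75% of all genes were higher and 7.63% lower at an unadjusted edgeR p under 0.05. In each of these lists 8 of 9 genes have copy-suffixed names, Cd74 and B2m being the exceptions, so their single values are uncertain. With the copy-suffixed counts added and all tumours kept, the median was 0.437 for the class II list and 0.0883 for the class I list. The difference between the lists was not tested.

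The DNA-binding partners of both coactivators showed no common shift, with 4 of 7 above 0 and a median log2 fold change of 0.01. Creb1 had -0.01, Nfya 0.11, Rfx5 0.20 and Rfxap -0.20, and 0 of the 7 had an unadjusted edgeR p under 0.05. Of 6 genes for kinases and receptors of other cytokines that use Jak1 or Jak2, all were above 0, with a median of 0.13. Tyk2, a kinase of the Janus family, had 0.36 (edgeR adjusted p = 0.274) and was the 1 gene of the list with an unadjusted p under 0.05, while Il6st had 0.18 and Ifnar1 0.07. With CD43-KO replicate 3 left out, the partners had 4 of 7 above 0 with a median of 0.04, and these kinases and receptors 4 of 6 with a median of 0.07. Over the 77 tested genes of the 9 lists, 65 were above 0 and 13 had an unadjusted edgeR p under 0.05, of which 12 were higher. That is 12 of 77 genes, where 7.75% of all genes were higher and 7.63% lower at this p, and 54% were above 0. Without CD43-KO replicate 3, 51 of the 77 were above 0, 9 were higher and 2 lower at this p. In that fit 51.9% of all genes were above 0 and 8.67% were higher at this p, while 1909 of 18037 genes were lower. Of these 77 genes edgeR and voom called 0, and DESeq2 called 5, where DESeq2 called 3.66% of the genes to which it gave an adjusted p. The 5 were Socs2, Il18r1, Cd274, Nos2 and Icam1, of which Socs2 and Nos2 are named for this call.

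**Figure D4:**
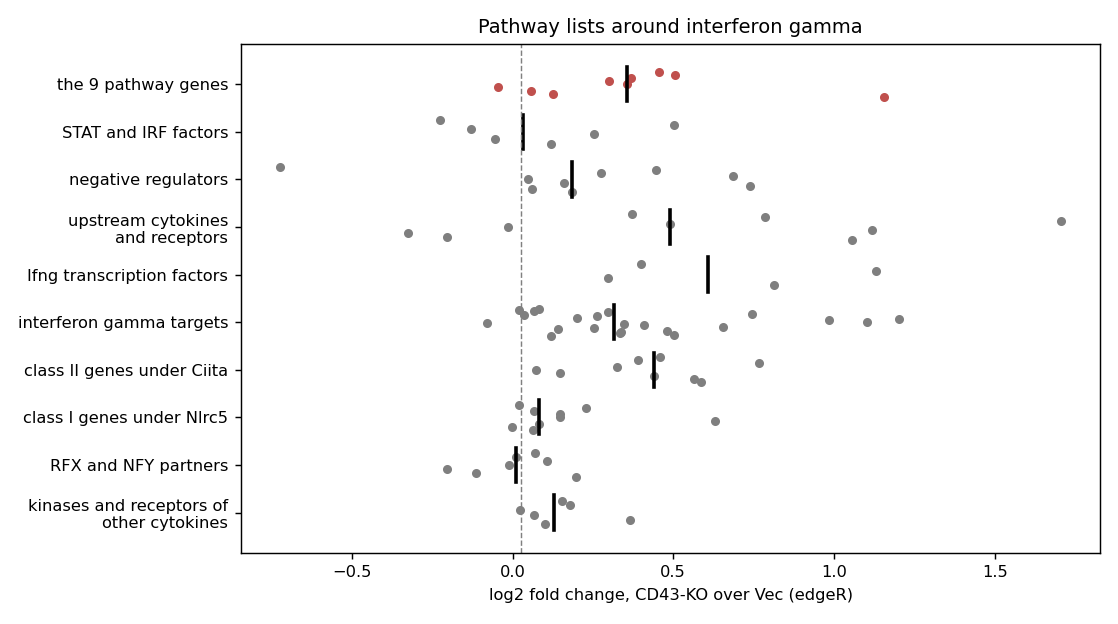
Log2 fold changes, CD43-KO over Vec, from the edgeR fit (x axis) of the 9 pathway genes in red and of the genes of the 9 surrounding lists in grey (down the page), with a black bar at each list's median. The dashed line is the median over all genes tested, 0.03. The medians are highest for the Ifng transcription factors (0.61) and the upstream cytokines and receptors (0.49) and lie near the dashed line for the Stat and Irf factors, the class I genes and the RFX and NFY partners.

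Some exons of the members are shared with other annotated genes. Ifng overlaps Gm49751 on the same strand over 336 bases of exon. On the opposite strand, Ciita overlaps Dexi over 329 bases, Irf1 overlaps Gm17334 over 135 bases, Nlrc5 overlaps 9330175E14Rik over 78 bases and Jak1 overlaps Raver2 over 4 bases. The strand setting of the counting is not given in the sources used here, so reads of these overlaps cannot be told apart, and they are a small part of each member's exons except for Ifng, with 1295 bases of exon in all.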

How the data were processed

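RNA of 9 tumours (5 CD43-KO, 4 Vec) was analysed. The authors deposited whole-number counts per gene name, 1 table a library, not scaled to depth. Per the submitters' processing notes, HISAT2 2.1.0, StringTie 1.3.5, DESeq2 and the build GRCm38 were used, with no role or order. How reads were assigned to genes, with which annotation and strand setting, is not given in the sources used here. Per the labels' protocols, TRIzol extracts of total RNA went into NEBNext Ultra libraries.

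The software was DESeq2 1.42.0, limma 3.58.1 and edgeR 4.0.16 under R 4.3.3. Names were kept by filterByExpr (minimum count 10, minimum total 15) and scaled by TMM factors. Groups were compared by the quasi-likelihood F test of edgeR, with Benjamini-Hochberg adjustment over 18243 names and a threshold of 0.05. Levels are CPM, and log2 CPM has a prior count of 2. Exact permutation tests over all splits of the tumours were 2-sided on log2 CPM. DESeq2 and limma voom with sample quality weights were alternatives. The scripts were tested on simulated data. Exon lengths and positions came from GENCODE M21 on GRCm38 and promoters from the RefSeq table of GRCm38.p6, in which 7 of the 9 symbols matched. No member has copy-suffixed names.

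The members and lists were chosen with earlier results of these data known. Named genes were all members and, in each list with no gene that passed, the 2 most abundant and the 2 with the largest absolute log2 fold change at a mean of at least 1 CPM, except 1 gene that is not reported here. Likeness is Pearson's r of log2 CPM at a mean of at least 1 CPM, without predicted, clone-named, pseudogene or receptor segment names. Replicates are separate samples in the labels, numbered in order of deposition. Nothing gives a batch or pairing, and nothing says whether each tumour came from its own mouse, so p-values measure the spread between these samples. All pairs of libraries differed beyond sampling noise (lowest chi-square per degree of freedom 35.3).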

Additional observations from a re-analysis of the deposited data

Results flagged for a closer look

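Within the 5 CD43-KO tumours, replicate 3 lay far from the others for 3 of the 9 genes by Dixon's gap test. It was the highest for Ifng at 11.45 CPM, with a gap to the next tumour of 0.739 of the whole range, and the highest for Ifngr2 at 97.95 CPM, with a gap of 0.797. For Jak1 it was the lowest, at 109.7 CPM, with a gap of 0.713. All 3 gaps exceed the 95% critical value for 5 samples. Of 18 sets of tumours tested, chance flags about 1 in 20. The muscle and fat RNA of this library moved with these values, and its part in them was not tested.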

How the results depend on the processing

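None of the 9 members was called under any of the 15 alternatives of the comparison of the groups, and the adjusted p of Nlrc5 ran from 0.0929 (voom) to 0.423. DESeq2 size factors, and a minimum mean of 1 CPM, turned no member's direction. The fold change of Jak1 turned to 0.0508 with library totals alone and to 0.0590 with voom, and that of Ifngr2 turned to -0.0368 with voom; the cause was not tested. Over all genes, 247 were called higher and 365 lower by DESeq2, 190 and 372 by voom, and 1 lower with no filter on low counts. DESeq2 called 5 of the 77 genes of the lists, where it called 3.66% of the genes to which it gave an adjusted p.

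Leaving out 1 tumour at a time gave 0 to 8 genes higher and 0 to 21 lower, with 8 and 21 without Vec replicate 3, 1 higher without Vec replicate 2 and 1 lower without CD43-KO replicate 2. Log2 fold changes ran from 0.51 to 1.44 for Ifng, -0.0326 to 0.189 for Ifngr1, -0.11 to 0.11 for Ifngr2, -0.12 to 0.0721 for Jak1, 0.24 to 0.43 for Jak2, 0.13 to 0.40 for Irf1, 0.08 to 0.49 for Socs1, 0.34 to 0.65 for Ciita and 0.28 to 0.55 for Nlrc5. Jak1 was also turned without Vec replicate 2, to 0.0092.

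Slopes on log2 Ifng ran from -0.021 to 0.277 for Ifngr1, 0.0228 to 0.268 for Ifngr2, -0.26 to 0.11 for Jak1, 0.24 to 0.33 for Irf1, 0.22 to 0.46 for Socs1 and 0.30 to 0.46 for Ciita. Without Vec replicate 1, Ifngr1 and Ifngr2 passed at slopes of 0.28 and 0.27 (limma adjusted p = 0.018 and 0.0167), so 5 members followed Ifng, against 0 without CD43-KO replicate 3. The share of all genes passing in these fits was not counted, so the member counts have no background beside them. Ciita missed the threshold without Vec replicate 2 (0.35, limma adjusted p = 0.0511) and without CD43-KO replicate 4 (0.33, limma adjusted p = 0.0545). Without the 2 farthest tumours the slopes of Irf1, Socs1 and Ciita were 0.29, 0.31 and 0.60, none passing, and Jak1 turned to 0.0348. With the group as a second term, Irf1 and Socs1 passed (limma adjusted p = 0.0188 and 0.0212) and Ciita did not (0.31, limma adjusted p = 0.0851). Of 18242 genes in that fit, 821 were called as rising and 329 as falling with Ifng.

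Ifng relative to Ptprc ran from -0.14 to 0.39 on leaving out 1 tumour, and the difference of Jak2 less its exon-length class was 0.34 (exact permutation p = 0.0635). No paired analysis was possible because the labels give no shared replicate numbers. Summing copy-suffixed names into the members was not run, as they have none. Summing those of the list genes, a step that was not planned, left 0 of the 77 list genes called by edgeR. Ifng had 53 to 493 counts a library, so its spread is mainly between tumours and not counting error.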
